A study of Mus musculus with 8 samples.

Results

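The replication-dependent histone genes were taken as the genes whose symbol begins with Hist1h, Hist2h, Hist3h or Hist4h in both deposited count tables, one table per mouse line. The rule found 70 genes among 55202, and it used symbols only, not levels. Of these, 56 have a Hist1 symbol and lie on chromosome 13, and 10 have a Hist2 symbol and lie on chromosome 3. Another 3 have a Hist3 symbol (chromosome 11) and 1 a Hist4 symbol (Hist4h4, chromosome 6). Clusters below follow the symbol, although Hist1h2al, at chr13:51202727-51203065, lies far from the other Hist1 genes. By the protein named in the symbol, 6 belong to the linker histone H1, 20 to H2A, 19 to H2B, 12 to H3 and 13 to H4. All 70 were found in the GENCODE M21 annotation of mm10, which lists 3 of them as pseudogenes (Hist1h2aj, Hist1h2al and Hist3h2bb-ps).

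Core histones H2A, H2B, H3 and H4 form the spool of the nucleosome, and H1 binds the DNA that enters and leaves it. The clustered genes are transcribed mainly in S phase, when newly copied DNA has to be packaged, and cells that have stopped dividing rely more on replication-independent variants made from separate genes. Most clustered histone mRNAs end in a short stem-loop instead of a poly(A) tail: the stem-loop is bound by SLBP, and the U7 small nuclear ribonucleoprotein directs the cut just after it. Some clustered genes also give spliced or polyadenylated transcripts, which have been described in differentiated cells. In the newborn cortex, dividing cells are progenitors of the germinal zones and precursors of glia and vessels. Subplate neurons, which lie below the cortical plate, have left the cell cycle.

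The study deleted Lhx2, a LIM-homeodomain transcription factor of cortical progenitors, at different steps of the excitatory neuron lineage and measured RNA in subplate cut by hand from the somatosensory cortex at postnatal day 0. NexCre mutants carried NexCre;Lhx2lox/lox, in which Cre is driven from the Neurod6 locus in postmitotic excitatory neurons, and NexCre controls were labelled WT. Emx1Cre mutants carried Emx1Cre11.5;Lhx2lox/lox, in which Cre acts in cortical progenitors, and Emx1Cre controls were also labelled WT. The strain of every sample was given as mixed. Each of the 4 groups had 2 libraries, and each library was a pool of tissue from 2 brains, so the p-values measure the spread between these pools. The RNA was enriched for mRNA with the Illumina TruSeq RNA V2 kit, which does not record strand, and sequenced as 100-base read pairs.

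Libraries held 36.8 and 38.9 M reads in NexCre mutants, 31.2 and 38.7 M in NexCre controls, 56.9 and 42.6 M in Emx1Cre mutants, and 64.4 and 40.8 M in Emx1Cre controls. Levels below are counts per 1000000 reads (CPM), scaled between libraries by the trimmed mean of M values (TMM). The deleted gene did not follow the label in one line: Lhx2 had 227 and 245 CPM in the libraries labelled NexCre mutant, against 182 and 236 CPM in NexCre controls, a log2 fold change of 0.18 ± 0.20 (standard error from the fit). In the other line Lhx2 had 64.0 and 42.7 CPM in Emx1Cre mutants, against 90.4 and 91.5 CPM in Emx1Cre controls, a log2 fold change of -0.77 ± 0.20 (adjusted p = 0.273, edgeR's quasi-likelihood test, Benjamini-Hochberg adjusted). A gene-level count does not separate the deleted exons. Genes at the Cre driver loci had lower values in the mutants of their own line, though not in that line alone. Neurod6 had 308 and 228 CPM in the libraries labelled NexCre mutant, against 395 and 507 CPM in NexCre controls (-0.75 ± 0.23, adjusted p = 0.9504, same test). Emx1 had 24.6 and 21 CPM in Emx1Cre mutants, against 66.4 and 78.4 CPM in Emx1Cre controls (-1.67 ± 0.22, adjusted p = 0.03343, same test). Both genes also had negative values in the other line. Emx1 had 27.8 and 26.3 CPM in the libraries labelled NexCre mutant, against 32.1 and 50.3 CPM in NexCre controls (-0.61 ± 0.22). Neurod6 had a log2 fold change of -0.28 ± 0.23 in Emx1Cre mutants. Marker genes of subplate neurons summed to 176.5 and 183.6 CPM in the libraries labelled NexCre mutant, 195.5 and 190.9 in NexCre controls, 614.7 and 545.9 in Emx1Cre mutants, and 634.9 and 707.6 in Emx1Cre controls. With 2 libraries against 2, no exact two-sided permutation test can give a p below 0.33, and the tests below borrow their estimate of spread from all genes and groups.

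The 3′ stem-loop was read from the annotated transcripts as the motif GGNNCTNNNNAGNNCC with paired stem arms, within 100 bases after the stop codon. It was found in 46 of 67 coding histone cluster genes (68.7%), against 7 of 21670 other coding genes (0.0323%). One of these others is H2afx, a replication-independent H2A variant whose mRNA is also known to end in a stem-loop. Of the 21 coding members without a match, 13 have an annotated transcript that ends at the stop codon, so the window is empty for them. For Hist1h2af and Hist1h2ah the window holds 1 and 2 bases, too few for the 16-base motif. The stem-loops below are shown because a transcript that ends at one lacks the poly(A) tail used in mRNA selection. All genes shown except Hist1h3b also have a poly(A) signal within 40 bases of an annotated end. Capitals mark the paired stem arms, lower case the loop and 7 flanking bases on each side, and sequences run 5′ to 3′ on the transcribed strand (GENCODE M21, mm10).
Hist1h1c (H1, chr13:23739512-23739527, plus strand): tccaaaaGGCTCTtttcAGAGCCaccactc
Hist3h2a (H2A, chr11:58955172-58955187, plus strand): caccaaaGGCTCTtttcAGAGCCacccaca
Hist3h2ba (H2B, chr11:58949349-58949364, plus strand): acccaaaGGCTCTtttcAGAGCCaccttcc
Hist1h3b (H3, chr13:23752820-23752835, plus strand): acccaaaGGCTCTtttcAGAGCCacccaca
Hist1h4h (H4, chr13:23531458-23531473, plus strand): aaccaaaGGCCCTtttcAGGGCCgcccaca
Hist4h4 (H4, chr6:136803998-136804013, minus strand): ccacaaaGGCCCTtttcAGGGCCcacaaag
Hist4h4 was added after its values were seen, as the lone member of its cluster. Across the 46 genes the loop was one of 5 sequences and the stem one of 3, and 26 genes of H1, H2A, H2B and H3 carried the same form, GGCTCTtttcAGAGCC. All 12 H4 stem-loops had another stem, GGCCCT in 10 and GGTCCT in 2. The stem-loop began 21 to 58 bases after the stop codon (median 31).

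The 2 sets of libraries held these transcripts at very different levels. Histone cluster genes took 0.8846% and 0.8027% of all reads in the libraries labelled NexCre mutant and 0.7607% and 0.7256% in NexCre controls. They took 0.008615% and 0.009119% in Emx1Cre mutants and 0.008976% and 0.009138% in Emx1Cre controls. Every NexCre library was far above every Emx1Cre library, and within a line the groups were close. Of the 70 genes, 62 had at least 10 reads in every NexCre library, against 19 with at least 10 reads in every Emx1Cre library. In the Emx1Cre line, 33 genes stayed under 10 reads in each library.

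The summed level of each histone class followed the same split. H4 genes summed to 2324 and 1972 CPM in the libraries labelled NexCre mutant and 2082 and 2019 CPM in NexCre controls, against 2.535 and 6.114 CPM in Emx1Cre mutants and 3.009 and 4.405 CPM in Emx1Cre controls. H3 genes summed to 1731 and 1400 CPM in the libraries labelled NexCre mutant and 1457 and 1305 CPM in NexCre controls, against 3.28 and 2.451 CPM in Emx1Cre mutants and 2.373 and 2.243 CPM in Emx1Cre controls. H2B genes summed to 2229 and 1953 CPM in the libraries labelled NexCre mutant and 1922 and 1792 CPM in NexCre controls, against 64.31 and 70.43 CPM in Emx1Cre mutants and 65.91 and 73.45 CPM in Emx1Cre controls. The ratio of NexCre controls to Emx1Cre controls was thus unequal between classes: 598-fold for H3, 553-fold for H4, 141-fold for H1, 57.3-fold for H2A and 26.6-fold for H2B. The H2B value rests on Hist3h2ba, which held most H2B reads of the Emx1Cre line: without it, a choice made after its values were seen, the other 18 H2B genes differed 74.8-fold. By cluster the ratio was 394-fold for Hist4, 202-fold for Hist1, 34.1-fold for Hist2 and 3.52-fold for Hist3. Over all members it was 75.6-fold, from 7383 and 7008 CPM in NexCre controls against 89.68 and 100.8 CPM in Emx1Cre controls, and 146-fold without Hist3h2ba.

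**Figure D1:**
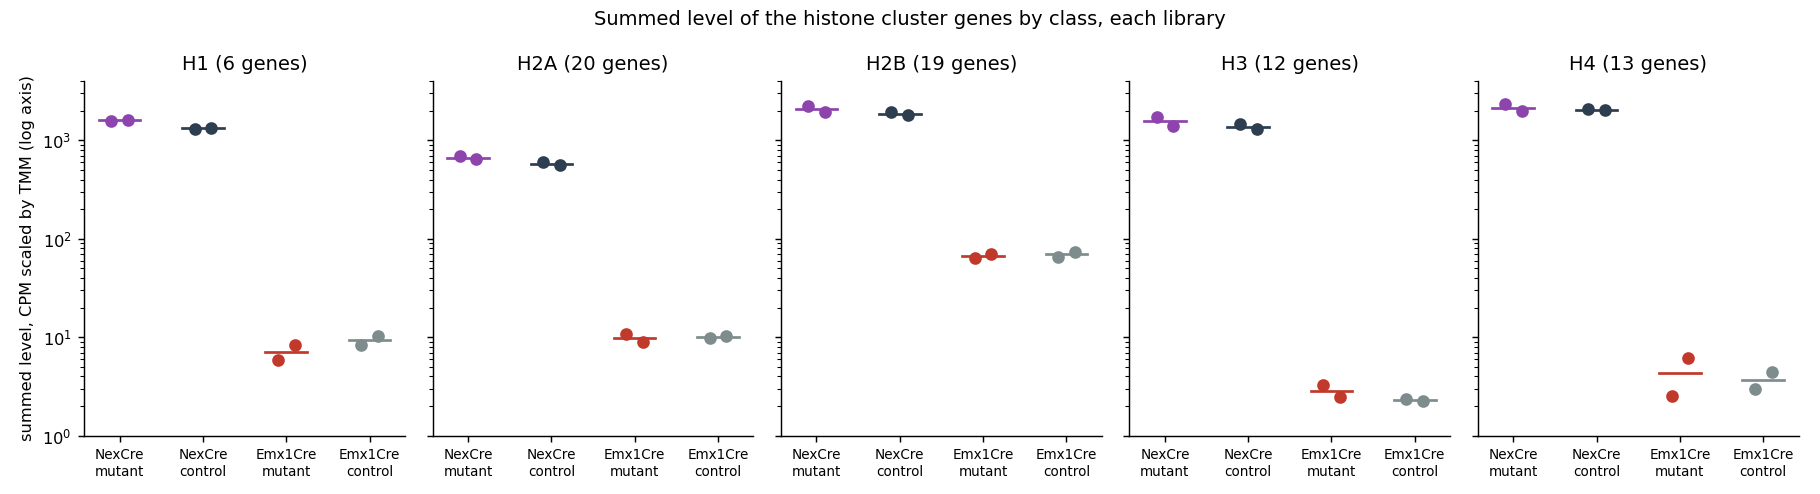
Summed level of the histone cluster genes of each class in each library, in CPM scaled by TMM on a log axis; points are the 2 libraries of a group and lines their mean. NexCre libraries lie far above Emx1Cre libraries in each class, while libraries labelled mutant lie close to the controls of their own line (H4 2324 and 1972 against 2082 and 2019 CPM in the NexCre line).

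Gene by gene, 63 members passed the filter on low counts and entered the fit with 22820 genes in all. Of them 62 differed between the controls of the 2 lines by edgeR's quasi-likelihood test, Benjamini-Hochberg adjusted: 61 were higher in NexCre controls and 1, Hist1h2al, was lower. Among all genes tested, 45.8% differed in either direction and 26.6% were higher in NexCre controls. The median log2 difference of the 63 members was 8.71, against 0.166 over all genes tested. Taken as ratios of pooled reads, 49 members were over 100-fold and 19 over 1000-fold higher in NexCre controls, and 4 were under 10-fold. Many of the 63 passed the filter through their NexCre reads alone. Line, Cre allele and library set coincide here and cannot be told apart, and in bulk tissue fewer cells of a type and less RNA per cell cannot be told apart either.

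RNAs that share the lack of a poly(A) tail moved with this split. Of 28 listed structural RNAs of the nucleus and cytoplasm without a tail, 14 were tested. Most of these passed the filter through their NexCre reads alone, so their direction was largely set by the filter. Of the 14, 13 were higher in NexCre controls by the same test, with a median log2 difference of 7.68. One of them, Rn7sk, the scaffold RNA that holds the elongation factor P-TEFb inactive, had 20600 and 17400 CPM in the libraries labelled NexCre mutant and 22400 and 18500 CPM in NexCre controls, against 1.44 and 17.8 CPM in Emx1Cre mutants and 4.65 and 35.7 CPM in Emx1Cre controls. Genes annotated as small RNAs, ribosomal RNAs and other short structural RNAs took 3.532% and 3.096% of reads in the libraries labelled NexCre mutant and 3.946% and 3.155% in NexCre controls, against 0.05865% and 0.5763% in Emx1Cre mutants and 0.05565% and 0.4414% in Emx1Cre controls. The replication-independent histones, most of which are polyadenylated, did not follow the clusters: of 13 tested replication-independent histones, 5 were higher and 3 lower in NexCre controls, and the median log2 difference was -0.01. Among genes of dividing cells, 16 of 27 of G2 and mitosis were higher in NexCre controls (median log2 difference 0.95). Of 37 genes of S phase 7 were higher and 2 lower (median 0.21), which is no larger a share than the 26.6% higher and 45.8% called either way over all genes. Many cell type markers also differed between the lines. In NexCre controls 10 of 17 radial glia and 6 of 11 intermediate progenitor markers were higher with 0 lower. All 11 oligodendrocyte precursor markers, 5 of 10 microglia markers and 5 of 14 vessel markers were lower with 0 higher. Of 13 subplate markers 9 were lower and 2 higher. Markers of cortical excitatory neurons went both ways, with 6 of 13 higher and 3 lower, and 1 of 7 erythroid markers was lower with 0 higher. Over all 22820 genes tested 4397 were lower in NexCre controls. The part of tail selection, of dividing cells and of these cell types in the histone difference was not tested.

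The members with the largest difference were H3 and H1 genes that were almost unread in Emx1Cre controls. Hist1h3b, which encodes a canonical H3, had 14433 pooled reads in NexCre controls against 4 in Emx1Cre controls, a depth-adjusted ratio of 5070 (95% counting interval 1980 to 18600). Hist1h3e had 13386 against 3 reads, a ratio of 6270 (2150 to 30400), and Hist1h3f had 9603 against 0 reads, at least 4500-fold higher with 3 reads as the floor over the group. Hist1h1b, a linker histone, had 6765 against 2 reads, a ratio of 4760 (1320 to 39300). Hist1h3h and Hist1h3d had ratios of 2620 (1200 to 7140) and 2430 (1320 to 5080). These exact intervals cover counting error only, and all 6 genes were read deeply in NexCre controls and hardly at all in Emx1Cre controls.

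Among the members with the smallest difference, Hist3h2a alone had similar levels in all 4 groups. Hist3h2a, an H2A gene of the Hist3 cluster, had 7.39 and 7.27 CPM in the libraries labelled NexCre mutant and 9.24 and 8.64 CPM in NexCre controls, against 8.67 and 6.21 CPM in Emx1Cre mutants and 7.8 and 6.94 CPM in Emx1Cre controls. It was the one tested member that did not differ between controls (log2 difference 0.28 ± 0.25, adjusted p = 0.397, edgeR's quasi-likelihood test, Benjamini-Hochberg adjusted). Its exons overlap those of Trim17, a ubiquitin ligase gene, and without strand the reads of the pair cannot be told apart. Hist3h2ba, the neighbouring H2B gene, had 186 and 155 CPM in the libraries labelled NexCre mutant and 178 and 170 CPM in NexCre controls, against 40.7 and 49.1 CPM in Emx1Cre mutants and 45.2 and 49.2 CPM in Emx1Cre controls. The difference between controls was 1.88 ± 0.16 on the log2 scale, and no NexCre library overlapped an Emx1Cre library. Hist2h2be, an H2B gene that is also known to be expressed outside S phase in neurons, had 9.86 and 8.71 CPM in the libraries labelled NexCre mutant and 9.24 and 9.76 CPM in NexCre controls, against 5.27 and 4.41 CPM in Emx1Cre mutants and 3.88 and 5.3 CPM in Emx1Cre controls. Its log2 difference between controls of 1.05 ± 0.27 (adjusted p = 0.01012, same test) was no longer called without Emx1Cre control 1 (adjusted p = 0.0711) or without NexCre control 2 (adjusted p = 0.0513), and over 14 alternatives its adjusted p ran from 0.000639 to 0.0711. Hist1h2bc and Hist3h2bb-ps followed with ratios of 21.1 and 22.3.

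The make-up of the histone reads differed between the lines. Hist3h2ba, Hist1h2bc, Hist1h1c and Hist3h2a together held 13% and 13.9% of histone reads in the libraries labelled NexCre mutant and 12.9% and 13.9% in NexCre controls, against 75.2% and 73.1% in Emx1Cre mutants and 76.5% and 74.1% in Emx1Cre controls. Per kilobase of annotated exon, the mean level of Hist3h2ba was 75 CPM in the Emx1Cre line, followed by Hist1h2bc with 7.6 and Hist1h1c with 4.81. In the NexCre line the same measure put H4 first: Hist1h4h had 766 CPM per kilobase, Hist1h4k 680 and Hist1h4n 558, with Hist3h2ba at 280 in rank 14. Hist1h4k was chosen after its values were seen. Levels per kilobase rest on exon lengths that differ between annotations, which matters most for the genes below whose annotated ends differ.

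Members were also grouped by the annotated end of the transcript. Genes whose GENCODE transcript ends within 100 bases of the stem-loop (23 genes) summed to a level 550-fold higher in NexCre controls, and those annotated to the stop codon alone (13 genes) to one 497-fold higher. Genes with an annotated transcript that runs over 100 bases past the stem-loop (23 genes) differed 47.5-fold, and the 3 pseudogenes 18.4-fold. Genes with bases annotated after the stop codon but no stem-loop found (8 genes) differed 47-fold. In 2 of these 8, Hist1h2af and Hist1h2ah, the annotated bases are too few to hold the motif. Without Hist3h2ba the genes that run past the stem-loop differed 129-fold. Genes with a poly(A) signal within 40 bases of an annotated end (17 genes) differed 30.6-fold (80.3-fold without Hist3h2ba), and the other 53 genes 221-fold. The 5 spliced genes differed 64.3-fold and the other 65 genes 77-fold (170-fold without Hist3h2ba). All of these are ratios of summed levels, and within an end class single genes spread widely: among genes that run past the stem-loop the ratio ran from 1.19 for Hist3h2a to 6270 for Hist1h3e, which spans the 82.1 to 5070 of the genes that end at the stem-loop. The RefSeq annotation of the same build ends 43 of the 46 stem-loop genes within 10 bases after the stem-loop, including 21 of the 23 that GENCODE carries more than 100 bases past it. No test was run on these end classes.

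**Figure D2:**
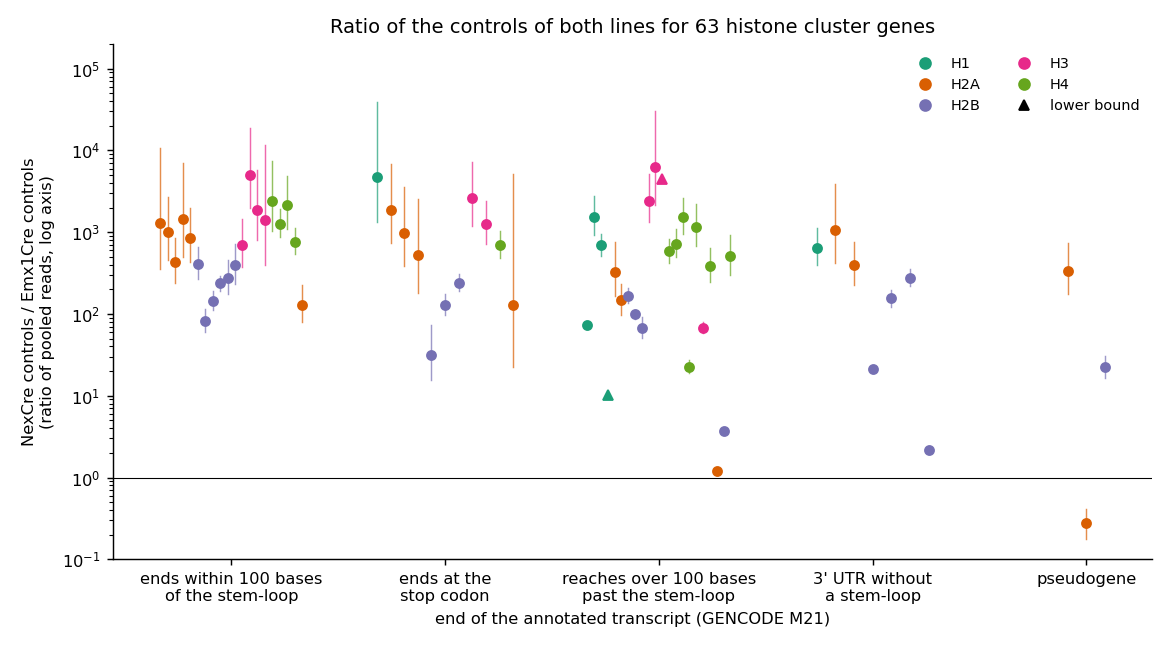
Ratio of pooled, depth-adjusted reads, NexCre controls over Emx1Cre controls, on a log axis for the 63 tested histone cluster genes, grouped by the end of the annotated transcript; bars are 95% counting intervals, triangles lower bounds for genes with 0 reads in Emx1Cre controls. Genes ending at the stem-loop run from 82.1 (Hist1h2bf) to 5070 (Hist1h3b), and Hist3h2a (1.19), Hist2h2be (2.17), Hist3h2ba (3.72) and Hist1h2al (0.275) lie lowest.

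In the mutants of the Emx1Cre line, 0 of 63 tested members passed edgeR's quasi-likelihood test, Benjamini-Hochberg adjusted, where 0.0789% of all genes tested did. Before adjustment 4 higher and 4 lower members had a p under 0.05, where 1732 of all 22820 genes tested did. DESeq2 called 1 member, Hist1h3b, and 298 genes in all. The median log2 fold change of the members was -0.02, against 0 over all genes tested. It was also -0.02 over the 52 members with over 3 reads in both groups. Of the members 30 were positive and 32 negative, where 45.9% of all genes tested were positive. Both mutant libraries lay above both controls in 9 members (14.3%, against 15.1% of all genes) and below both in 8 (12.7%, against 15.2%). Both shares are near the background. The summed level of all members was 86.95 and 96.15 CPM in Emx1Cre mutants, against 89.68 and 100.8 CPM in Emx1Cre controls, so the groups overlapped (log2 ratio -0.06).

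Hist1h1c, a linker histone known to be expressed in differentiated cells as well as dividing ones, had the lowest p among lower members with at least 10 reads in every library. It had 5.57 and 7.13 CPM in Emx1Cre mutants, against 7.71 and 9.59 CPM in Emx1Cre controls, so both mutant libraries were below both controls. The log2 fold change was -0.45 ± 0.17 (adjusted p = 0.576, edgeR's quasi-likelihood test, Benjamini-Hochberg adjusted), which did not pass. Hist3h2ba, which held 46.8% to 51% of the histone reads of this line, had a log2 fold change of -0.07. Among H2B genes 4 fold changes were positive and 14 negative (median -0.12), with none called. Of the 7 H3 genes with over 3 reads in both groups 6 were positive and 1 negative (median 0.64), also with none called.

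The H3 values rest on few reads. Hist1h3b had 11 and 14 reads in Emx1Cre mutants, against 3 and 1 in Emx1Cre controls. Both mutant libraries were above both controls, with a log2 fold change of 2.64 ± 0.62 (adjusted p = 0.21, edgeR's quasi-likelihood test, Benjamini-Hochberg adjusted). DESeq2 gave 2.74 with an adjusted p of 0.0482, and the edgeR fit without a low-count filter gave an adjusted p of 0.0028, so the call depends on the method; over 15 alternatives the adjusted p ran from 0.0028 to 0.5. Hist1h3f had 2 and 2 reads in Emx1Cre mutants, against 0 and 0 in Emx1Cre controls. Hist1h3g, another H3 gene, had 6 and 2 reads in Emx1Cre mutants, against 2 and 0 in Emx1Cre controls. The H2A gene Hist1h2ab had 6 and 3 reads in Emx1Cre mutants, against 2 and 0 in Emx1Cre controls. In these 3 genes the control counts are under the floor of 3 reads, and no fold change is given. On the lower side, Hist1h2bm had 0 and 4 reads in Emx1Cre mutants, against 14 and 4 in Emx1Cre controls. Hist1h2af had 0 and 0 reads in Emx1Cre mutants, against 1 and 3 in Emx1Cre controls, and Hist1h2ao 0 and 0 against 2 and 1.

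**Figure D3:**
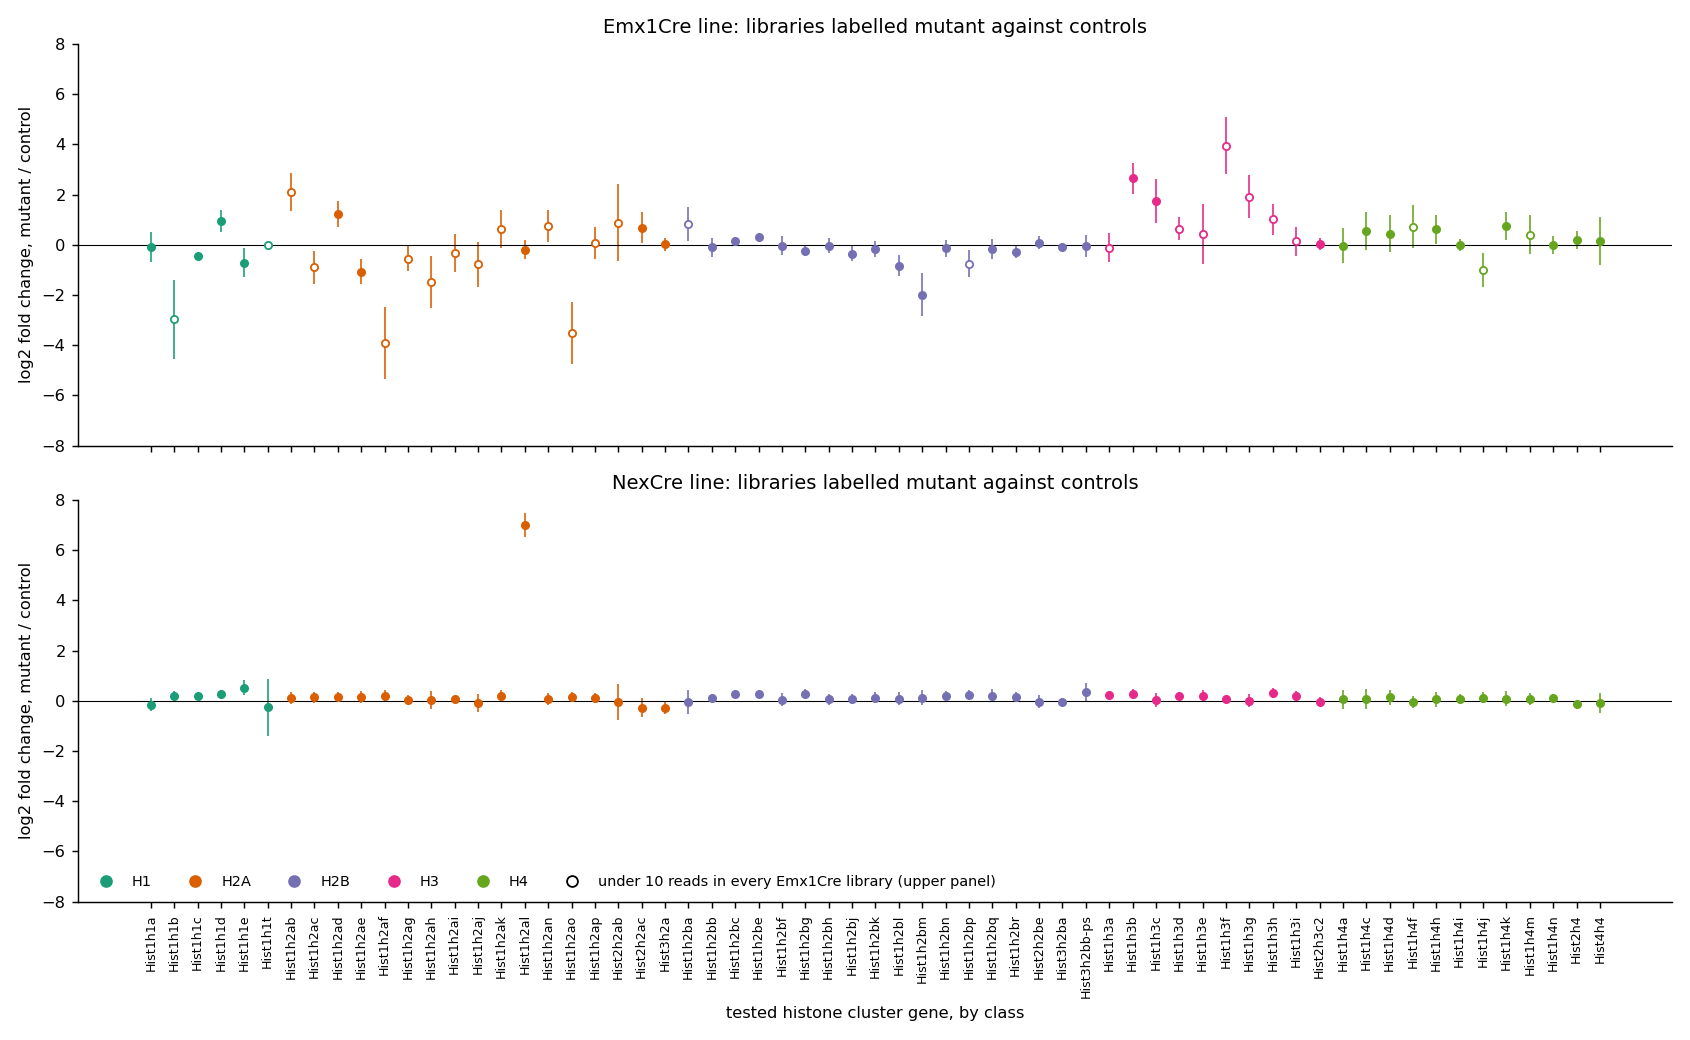
Log2 fold change of each of the 63 tested histone cluster genes, mutant over control, in the Emx1Cre line (top) and the NexCre line (bottom); bars are the standard error of the fit, and open points have under 10 reads in every Emx1Cre library. Emx1Cre values scatter widely around 0, those of open points resting on very few reads, while NexCre values lie in a narrow band except Hist1h2al at 7.00.

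In the NexCre line 1 of 63 tested members, Hist1h2al, was higher in the libraries labelled NexCre mutant and 0 were lower by edgeR's quasi-likelihood test, Benjamini-Hochberg adjusted, where 0.0307% of all genes tested were called. At an unadjusted p under 0.05 and by DESeq2 the count was also 1. Of all 22820 genes tested 904 had such a p, and DESeq2 called 76. The median log2 fold change was 0.11, against 0.004 over all genes tested. Of the members 50 were positive and 13 negative, where 50.6% of all genes tested were positive. Members share the same libraries, so their signs are not independent of each other. The standard errors were smaller than in the Emx1Cre line (median 0.229 against 0.576). Both libraries labelled NexCre mutant lay above both controls in 13 members (20.6%, against 18.1% of all genes) and below both in 1 member (1.59%, against 17.7%). The summed level was 8555 and 7581 CPM in the libraries labelled NexCre mutant, against 7383 and 7008 CPM in NexCre controls. The groups did not overlap, but the log2 ratio of 0.17 fell to 0.06 without NexCre mutant 1.

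The linker histones had the largest class value in this line. H1 genes summed to 1585 and 1604 CPM in the libraries labelled NexCre mutant, against 1318 and 1336 CPM in NexCre controls, a log2 ratio of 0.27 with no overlap. The sums of H2A, which include Hist1h2al, and of H2B did not overlap either (log2 ratios 0.205 and 0.171). Those of H3 and H4 overlapped. Hist1h1e had 393 and 462 CPM in the libraries labelled NexCre mutant, against 289 and 307 CPM in NexCre controls (log2 fold change 0.52 ± 0.29). Hist1h1c had 699 and 690 CPM in the libraries labelled NexCre mutant, against 597 and 616 CPM in NexCre controls (0.20 ± 0.16). In both genes, and in Hist1h1d with 271 and 270 CPM in the libraries labelled NexCre mutant against 216 and 235 CPM in NexCre controls, both libraries labelled mutant were higher. None passed the test (adjusted p = 1 for each, edgeR's quasi-likelihood test, Benjamini-Hochberg adjusted), and exons of Hist1h1e overlap those of Hist1h2be. Hist1h1a, another linker histone, had 106 and 76.1 CPM in the libraries labelled NexCre mutant, against 108 and 94.3 CPM in NexCre controls, so it did not share that order (-0.15 ± 0.24).

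Core histone genes other than Hist1h2al gave no call. Hist1h2be had 197 and 167 CPM in the libraries labelled NexCre mutant, against 143 and 154 CPM in NexCre controls (log2 fold change 0.29 ± 0.14). Hist1h2bg had 304 and 283 CPM in the libraries labelled NexCre mutant, against 236 and 248 CPM in NexCre controls. Hist1h3h had 222 and 165 CPM in the libraries labelled NexCre mutant, against 158 and 152 CPM in NexCre controls (0.32 ± 0.19). All 3 had both libraries labelled mutant above both controls, and none passed the test. The abundant H4 genes overlapped between groups, as in Hist1h4h with 404 and 331 CPM in the libraries labelled NexCre mutant, against 368 and 339 CPM in NexCre controls. Hist1h4d had 308 and 253 CPM in the libraries labelled NexCre mutant, against 259 and 250 CPM in NexCre controls. Hist1h4n had 272 and 225 CPM in the libraries labelled NexCre mutant, against 220 and 243 CPM in NexCre controls.

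By cluster, all 5 tested Hist2 genes had a negative value in the NexCre line (median -0.05), and 49 of 54 tested Hist1 genes a positive one (median 0.13). The difference between the clusters was not tested, and Hist1h2al was the one gene called in either. Hist2h4 had 71.5 and 59 CPM in the libraries labelled NexCre mutant, against 69.9 and 74.1 CPM in NexCre controls (-0.14 ± 0.17). Hist2h2ac had 18.9 and 15.4 CPM in the libraries labelled NexCre mutant, against 22.8 and 18.7 CPM in NexCre controls (-0.27 ± 0.38). Hist3h2a, with the values given above, was the one member with both libraries labelled NexCre mutant below both controls (-0.29 ± 0.25). Each of these differences is smaller than or close to its standard error.

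Hist1h2al stood apart from all other members. It had 1471 and 2740 reads in the libraries labelled NexCre mutant, against 18 and 11 reads in NexCre controls. In CPM it had 38.7 and 66.4 in the libraries labelled NexCre mutant, against 0.56 and 0.275 in NexCre controls, with no overlap. The log2 fold change was 7.00 ± 0.47 (95% interval 5.96 to 8.04, adjusted p = 0.000878, edgeR's quasi-likelihood test, Benjamini-Hochberg adjusted), and over 16 alternative settings it ran from 6.54 to 7.56 with adjusted p from 7.32e-74 to 0.00661. In the other line it had 1.4 and 1.31 CPM in Emx1Cre mutants, against 1.13 and 2.03 CPM in Emx1Cre controls, so those groups overlapped (log2 fold change -0.19). The difference of the 2 mutant effects, Emx1Cre minus NexCre, was -7.19 ± 0.59 (adjusted p = 0.006177, same test), and Hist1h2al was the one gene called for it, 0.00438% of all genes tested. It was also the one member lower in NexCre controls than in Emx1Cre controls, with a ratio of pooled reads of 0.275 (95% counting interval 0.178 to 0.412). The log2 difference of -1.92 ± 0.45 (adjusted p = 0.007134, same test) was not called without NexCre control 2 (adjusted p = 0.0569, within a range of 8.49e-07 to 0.0569 over 14 alternatives). That comparison uses the same control libraries as the mutant comparisons.

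The locus is annotated as a pseudogene of H2A on chromosome 13, far from the other Hist1 genes. GENCODE M21 gives a processed pseudogene of 339 bases without a stem-loop at chr13:51202727-51203065 on the minus strand, and RefSeq a transcribed pseudogene, H2af-ps2, of 2983 bases at chr13:51200084-51203066. The first 300 bases of the GENCODE transcript are shown because the gene had the one mutant difference called among the members. The files do not show where in the gene its reads lie. It is given 5′ to 3′ on the minus strand (chr13:51202766-51203065, mm10), and capitals mark bases that lie in a 100-base stretch also present in another annotated gene.
Hist1h2al: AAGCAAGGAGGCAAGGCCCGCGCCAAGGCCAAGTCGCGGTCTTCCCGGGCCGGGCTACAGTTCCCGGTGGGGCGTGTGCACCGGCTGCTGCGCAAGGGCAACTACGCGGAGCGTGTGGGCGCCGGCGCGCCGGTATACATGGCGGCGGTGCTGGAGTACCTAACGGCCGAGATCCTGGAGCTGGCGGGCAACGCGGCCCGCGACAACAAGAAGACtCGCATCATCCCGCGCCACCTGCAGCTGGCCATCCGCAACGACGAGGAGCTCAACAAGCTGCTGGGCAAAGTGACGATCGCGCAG
Nearly all of its bases are thus found in 9 other annotated genes, but these include Gm44341, a gene model that overlaps its exon and is not a copy elsewhere. Only 19.17% of its 100-base stretches are found whole in one of the 9, among them also the H2A genes Hist2h2aa1, Hist2h2aa2 and Hist2h2ac. Reads of such a sequence can be shared between copies, and how the counting handled them is not given in the sources used here. Of the genes that share stretches, Gm20632 had 94 and 76 reads in the libraries labelled NexCre mutant, against 64 and 89 in NexCre controls, and Gm44341, on the opposite strand of the same place, had 0 reads in every library. Hist2h2aa1 and Hist2h2aa2, a pair of H2A genes that share stretches with it, also had 0 reads in every library. The nearest tested genes on either side, Spin1, Nxnl2, Gm29787, S1pr3 and Shc3, had log2 fold changes from -0.59 to 0.45 in the NexCre line with 0 of 5 called by edgeR. These genes were chosen after the value of Hist1h2al was seen.

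**Figure D4:**
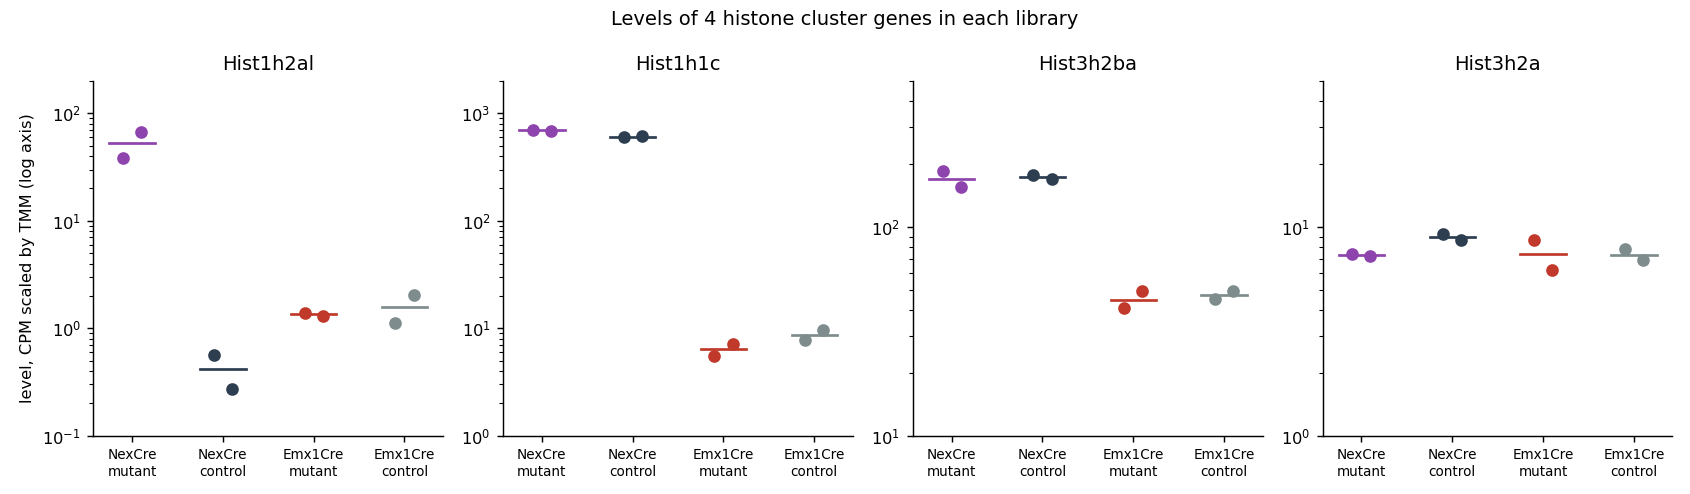
Level of Hist1h2al, Hist1h1c, Hist3h2ba and Hist3h2a in each library, in CPM scaled by TMM on log axes that differ between panels; points are libraries and lines the mean of 2. Hist1h2al is high only in the libraries labelled NexCre mutant (38.7 and 66.4 CPM), Hist1h1c and Hist3h2ba split by line, and Hist3h2a lies between 6.21 and 9.24 CPM throughout.

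Sequence shared with other annotated genes limits other members as well. The 7 members that were not tested were Hist1h2aa, Hist1h4b, Hist2h2aa1, Hist2h2aa2, Hist2h2bb, Hist2h3b and Hist2h3c1, and all but Hist1h4b had 0 reads in all 8 libraries. A count of 0 in the shallowest library allows a level of up to 0.0962 CPM (3 reads). In the 5 Hist2 genes at 0 all 100-base stretches also occur in other annotated genes, against 10.31% in Hist1h2aa. For Hist2h2bb and Hist1h2aa these are solely gene models that overlap their exons, and the other 4 also share stretches with genes elsewhere. Over all 70 members, 29 share at least 50% of their stretches with another gene and 6 share none, with a median of 69.9% in H2A and 0.395% in H1. These shares include gene models that overlap the exons of a member. Such an overlap was present in 26 members, among them every H2A gene but only Hist1h1e of the H1 genes. Values of single genes that share many stretches are uncertain.

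The genes that transcribe, process and handle histone mRNA gave no call in either mutant comparison. Of 24 tested genes of histone mRNA 3′ processing, 0 passed edgeR's test in either line, with a median log2 fold change of -0.004 in the NexCre line and -0.11 in the Emx1Cre line. At an unadjusted p under 0.05 there were 2 in the NexCre line and 0 in the Emx1Cre line, and DESeq2 called 0. Of all 22820 genes tested 904 had such a p in the NexCre line and 1732 in the Emx1Cre line. Slbp, the stem-loop binding protein, had 16.9 and 23.6 CPM in the libraries labelled NexCre mutant and 22.2 and 21.2 CPM in NexCre controls. In the other line it had 25.6 and 18.2 CPM in Emx1Cre mutants and 24.4 and 19.4 CPM in Emx1Cre controls, so neither line separated its groups. Lsm11, a subunit of the U7 particle, had 54.6 and 57.3 CPM in the libraries labelled NexCre mutant, against 94.9 and 81.1 CPM in NexCre controls. Both libraries labelled mutant were lower, and the log2 fold change of -0.65 ± 0.18 did not pass (adjusted p = 0.752, edgeR's quasi-likelihood test, Benjamini-Hochberg adjusted). Npat, the coactivator of histone genes in the histone locus body, had a log2 fold change of 0.16 ± 0.17 in the NexCre line and 0.35 ± 0.18 in the Emx1Cre line. Of 23 tested histone chaperones 0 were called in either line by edgeR or DESeq2, and 0 had an unadjusted p under 0.05.

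Replication-independent histones and dividing-cell genes were likewise not called by edgeR in the mutants. Among 13 tested replication-independent histones the median log2 fold change was -0.07 in the NexCre line and -0.15 in the Emx1Cre line, with 0 called in either by edgeR or DESeq2 and 2 at an unadjusted p under 0.05, both in the Emx1Cre line. H2afz, the variant H2A.Z, had 105 and 129 CPM in Emx1Cre mutants, against 156 and 157 CPM in Emx1Cre controls, a log2 fold change of -0.42 ± 0.15 that did not pass (adjusted p = 0.541, edgeR's quasi-likelihood test, Benjamini-Hochberg adjusted). Genes of S phase (37 tested) had median log2 fold changes of 0.08 in the NexCre line and -0.05 in the Emx1Cre line, with 0 called by either tool. At an unadjusted p under 0.05 there were 0 in the NexCre line and 2 in the Emx1Cre line. Of all 22820 genes tested 904 and 1732 had such a p in these lines. The S phase genes summed to 1019 and 1030 CPM in the libraries labelled NexCre mutant and 995.8 and 949.1 CPM in NexCre controls. In the other line they summed to 735.3 and 675 CPM in Emx1Cre mutants and 805.2 and 682.7 CPM in Emx1Cre controls. Of 27 tested genes of G2 and mitosis 0 were called by either tool. In the Emx1Cre line 19 were positive and 8 negative (median 0.13), and in the NexCre line 20 and 7 (median 0.07). They summed to 346.8 and 257.6 CPM in Emx1Cre mutants, against 351.8 and 205.7 CPM in Emx1Cre controls. In the libraries labelled NexCre mutant the sums were 721.8 and 651.9 CPM, against 707.3 and 563.8 CPM in NexCre controls, so both lines overlapped. One of these genes, Mki67, a nuclear protein of cycling cells, had 30.8 and 23.5 CPM in Emx1Cre mutants, against 21 and 14.1 CPM in Emx1Cre controls (0.63 ± 0.23, adjusted p = 0.544, same test). In the NexCre line it had 118 and 97.8 CPM in the libraries labelled NexCre mutant, against 94.4 and 72.9 CPM in NexCre controls, so in both lines both libraries labelled mutant were higher without a call. Markers of intermediate progenitors, dividing precursors of excitatory neurons, summed to 509.6 and 491 CPM in the libraries labelled NexCre mutant, against 427.9 and 377.4 CPM in NexCre controls, and their part in the small positive histone values of that line was not tested.

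Markers of the cell types that the cut tissue could hold gave no edgeR call in the mutants. Across all 16 gene lists 0 genes were called by edgeR in either line, while DESeq2 called some in the Emx1Cre line. These were 2 radial glia genes higher, 1 long nuclear RNA higher, 1 intermediate progenitor gene lower, 3 subplate genes lower and 1 gene of cortical excitatory neurons lower. In that line DESeq2 called 298 of all genes tested. Radial glia markers, genes of the progenitors that line the ventricle, summed to 3910 and 2989 CPM in Emx1Cre mutants. In Emx1Cre controls they summed to 2904 and 2013 CPM, so both mutant libraries were above both controls. Fabp7, Ptprz1 and Slc1a3 had the highest levels in this sum. Of the 17 markers tested, 13 had positive and 4 negative log2 fold changes (median 0.21). In the same comparison all 14 markers of vessels had positive log2 fold changes (median 0.55). So had 11 of 11 markers of oligodendrocyte precursors (median 0.21) and 9 of 10 of microglia (median 0.49). Over all genes tested 45.9% were positive, and markers of a list share the same libraries. The summed histone level of that line overlapped between groups, and the part of these cell types in it was not tested.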

How the data were processed

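Libraries came from subplate of newborn mice, 2 per group in 4 groups. The authors deposited raw counts of reads for each gene, in a separate table for each line. The submitters' processing notes name HISAT2, SAMtools, DESeq2 and build mm10. The sources used here give no tool version, counting program, annotation, strand setting or rule for reads with several matches. Both tables were joined by symbol, and 97.0% of genes were matched to GENCODE M21. Symbols that a spreadsheet had turned into dates (26 and 24 rows, 0.239% to 0.269% of reads) were left out.

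Genes kept by edgeR's filterByExpr (minimum count 10, minimum total 15) were fitted after TMM scaling in edgeR 4.0.16 under R 4.3.3 (glmQLFit, glmQLFTest, prior count 0.125), with all 8 libraries in 1 fit. There were 4 residual degrees of freedom, 5.95 prior degrees of freedom, a biological coefficient of variation of 26.2% and a threshold of 0.05 after Benjamini-Hochberg adjustment over all genes tested. The fit was tested on simulated data. Summed levels and intervals were computed in Python 3.11.15 with pandas 2.3.3 and scipy 1.17.1, with exact 95% counting intervals for ratios of pooled reads.

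The members and the 16 gene lists were chosen with earlier results of these data known. Named members were those called, the 4 of lowest p in each direction and the 8 of highest mean CPM in each line, and the 6 largest and 6 smallest differences between controls. Alternatives were DESeq2 1.42.0, other scalings and filters, each line fitted alone, a replicate block and leaving out each library. Same-numbered libraries deviated together with correlations of 0.323 in the Emx1Cre line and 0.151 in the NexCre line over all genes, and nothing in the labels pairs them.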

Additional observations from a re-analysis of the deposited data

Results flagged for a closer look

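The effect on Hist1h2al differed between the lines. The log2 fold change, mutant over control, was -0.19 in the Emx1Cre line and 7.00 in the NexCre line, and the difference of the 2 effects was -7.19 ± 0.59 (adjusted p = 0.006177, edgeR's quasi-likelihood test, Benjamini-Hochberg adjusted). The difference was negative and called in each of 15 alternative settings, from -7.75 to -6.74, with an adjusted p of at most 0.0296. This value rests on the libraries labelled NexCre mutant, where the level of Lhx2 was not below that of the controls.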

How the results depend on the processing

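Of 171 alternative values of the counts, medians and sums, 11 changed, and of 1168 alternative values of single members 1125 kept their direction and side of the threshold, 38 moved, 3 became weaker, 2 stronger and 0 reversed. Without a low-count filter 1 member was called in Emx1Cre mutants (Hist1h3b) and 2 for the difference of effects (Hist1h2al and Hist1h3b), and DESeq2 called 1 member (Hist1h3b) in Emx1Cre mutants; the reported counts are 0 and 1. Leaving out each library gave medians of -0.269 to 0.189 in the Emx1Cre line, -0.0192 to 0.213 in the NexCre line, -0.327 to 0.0927 for the difference of effects and 8.48 to 9.05 for the controls. The log2 ratio of the summed level then ran from 0.0611 to 0.25 in the NexCre line and from -0.134 to 0.0193 in the Emx1Cre line, so its sign in the Emx1Cre line rests on single libraries. Over members in which no stem-loop was found the summed level differed between controls by 6.5 on the log2 scale. It differed by 6.24 over all members and by 7.19 without Hist3h2ba. Without Hist1h2al (like the one without Hist3h2ba, an alternative chosen after seeing the data) the log2 ratio in the NexCre line was 0.156. With a replicate block the member counts were 0 in the Emx1Cre line, 1 in the NexCre line and 1 for the difference, Hist1h2al had 6.97, and no call of a member changed; over all genes tested the block gave 82, 22 and 5 calls, DESeq2 298, 76 and 96, and no filter 585, 251 and 408, against 18, 7 and 1 as reported. The cause of these changes was not tested. In the Emx1Cre line, with 3730 to 5781 histone reads per library, depth limits what can be seen: the standard errors there had a median of 0.576.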

Other observations

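Within the Emx1Cre line the histone classes differed between libraries of the same group. Among the genes with at least 20 reads summed over the line, 7 of 9 H4 genes had a higher level in the second library of both groups, and 0 of 5 H3 genes did. For H2B the count was 7 of 18, for H1 3 of 4 and for H2A 1 of 5, with 2 H2A and 2 H3 genes lower in the second library of both groups. The share of all genes with this order was not computed, so these counts have no background. Same-numbered libraries of this line deviated together over all genes (correlation 0.323). H4 genes made up 2.92% and 6.36% of histone reads in Emx1Cre mutants and 3.36% and 4.37% in Emx1Cre controls. The share of short structural RNAs was also higher in the second library of both groups, and its part in the H4 values was not tested. These genes and classes were chosen after their values were seen.

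The octamer ATTTGCAT, the motif of OCT1 in histone H2B promoters, was searched on both strands in the 300 bases from 250 before to 50 after the RefSeq start, for the 62 members with an entry. It was present in 7 of 16 H2B promoters (43.8%) and 7 of 18 H2A promoters (38.9%) and in 0 of 6 H1, 0 of 10 H3 and 0 of 12 H4 promoters. Most H2A and H2B promoters thus lacked it as well. Over all genes with an entry it was present in 532 of 27025 (1.97%). A match is a description of the sequence and not a measured site, and H2A and H2B genes often share a divergent promoter, so the counts are not independent of each other.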
